A study of Mus with 4 samples.

Results

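The constitutive proteasome genes were taken from the cochlear gene table as every symbol made of Psma, Psmb, Psmc, Psmd, Psme, Psmf or Psmg and a number, leaving out Psmb8, Psmb9 and Psmb10, which code the inducible catalytic subunits. The rule gave 42 of the 21230 genes listed. By role they were 6 genes of the alpha ring, 8 of the beta ring, 5 ATPases of the regulatory base, 3 other base subunits, 8 lid subunits, 3 subunits of the PA28 activator, the single genes of the PA200 activator and of the inhibitor Psmf1, and 7 assembly chaperones. The rule uses symbols alone and no measured value, though it was set with earlier results of these data known. The genes Psma3, Psma8 and Psmc6, which the rule also names, were not analysed here.

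The proteasome is the main protease of the cytosol and nucleus. Its barrel-shaped core has outer rings of alpha subunits, which gate the entrance, and inner rings of beta subunits, of which Psmb5, Psmb6 and Psmb7 cut peptide bonds. A regulatory cap, made of a base with ATPases and a lid, recognises ubiquitin-tagged proteins, removes the tag and threads the chain into the core. Activators such as PA28 open the core without ATP. Interferon is known to raise the PA28 genes Psme1 and Psme2 together with Psmb8, Psmb9 and Psmb10, which replace the constitutive catalytic subunits to form the immunoproteasome. The rule therefore takes in a pair of interferon-inducible genes, Psme1 and Psme2, and the thymus subunit gene Psmb11 beside genes used in every cell, so that Psme1 and Psme2 can be set against the core and lid.

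The samples were cochlear total RNA of mice whose otoferlin gene, needed at the hair cell synapse, carries an early stop codon (p.R439X, from the change c. 1315 C > T in Otof). There were 2 libraries from mice treated with RESTARTv3, a guide RNA with an isoform of the pseudouridine synthase DKC1 and a suppressing tRNA, carried by the viral vector AAVie into the left inner ear at 4 weeks of age per the study's methods, and 2 libraries from untreated mice of the same genotype. The untreated columns share 1 name and are called A and B, with no order. No injected control was among these libraries, so the injection, the vector and RESTARTv3 cannot be told apart, and neither the age at collection nor the mouse behind each library was given in the sources used here. The study calls its RNA sequencing replicates independent, and for cochlear inflammatory factors it states 2 biological replicates. The labels name no separate mice, so p-values measure the spread between these libraries, part of which may be technical.

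Values were deposited as RPKM, in which reads are divided by the length of the gene and the total of the library. Whole reads were recovered from them for each gene. The library totals were 71144247 and 61040077 reads in RESTARTv3 replicates 1 and 2, against 39650172 reads in untreated A and 56739609 in untreated B. The 42 members held 89348 and 37271 reads in the RESTARTv3 libraries, against 32106 and 71734 reads in untreated A and B. Listed genes took 57.9% and 28.6% of the RESTARTv3 totals, against 52.9% and 60.4% of the untreated totals. Over all genes the median log2 ratio of deposited RPKM was 1.08 for RESTARTv3 replicate 1 over replicate 2, and that of RESTARTv3 replicate 2 was -0.53 over untreated A and -1.11 over untreated B. For this reason values are also given as scaled reads, the recovered reads divided by a median-of-ratios factor for each library. Inner hair cell markers were present, with 5 of 5 listed, and no listed value was 0.

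Over the whole family, the summed level in the RESTARTv3 libraries lay just above that of untreated B and further above that of untreated A. The members summed to 54136 and 53709 scaled reads in RESTARTv3 replicates 1 and 2, against 48650 and 53514 scaled reads in untreated libraries A and B. The groups did not overlap, but only untreated A was low, and untreated B lay close to both RESTARTv3 libraries. As a share of the reads on listed genes, the members took 0.217% and 0.213% in the RESTARTv3 libraries, against 0.153% and 0.209% in untreated A and B. In whole cochlear tissue, fewer cells of a type and less RNA per cell cannot be told apart.

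No member passed the test. With limma on log2(RPKM + 0.5) of genes averaging an RPKM of 1 or more, 25 of the 42 members were tested and 0 were called at a Benjamini-Hochberg adjusted p under 0.05, against 0% of all 5076 genes tested. At an unadjusted p under 0.05 there were again 0 members, against 0.118% of all genes that were higher and 1.3% that were lower in RESTARTv3. With limma voom on the recovered reads, all 42 members were tested and 0 were called, against 0 of 18467 genes, of which 2.19% had an unadjusted p under 0.05. With 2 libraries on each side, the smallest p of an exact permutation test on a single value would be 0.333.

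The median log2 change of the 25 members in deposited RPKM, RESTARTv3 minus untreated, was -0.08, against -0.41 over all genes tested, and 9 of 25 were above 0, where 23.9% of all genes were. Relative to the median gene, the members lay 0.34 higher. By library, the member median minus that of all genes was 0.59 and 0.56 in RESTARTv3, against -0.04 and 0.64 in untreated A and B. The pooled SD of this measure within groups was 0.34. On scaled reads, where the median of all genes was -0.01, the median of the 42 members was 0.22 and 28 of 42 were above 0, against 49.7% of all genes. The members ran between -0.85 for Psmb11 and 0.93 for Psmd10, the gene of an assembly chaperone of the base. Without untreated A the same median was 0.03 over 41 members, and 25 of those were above 0, against 48.7% of all genes. Without untreated B, where untreated A alone stands for its group, 16 of 42 members were called higher, against 21.4% of all genes, and 7 lower, against 26.8%.

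**Figure D1:**
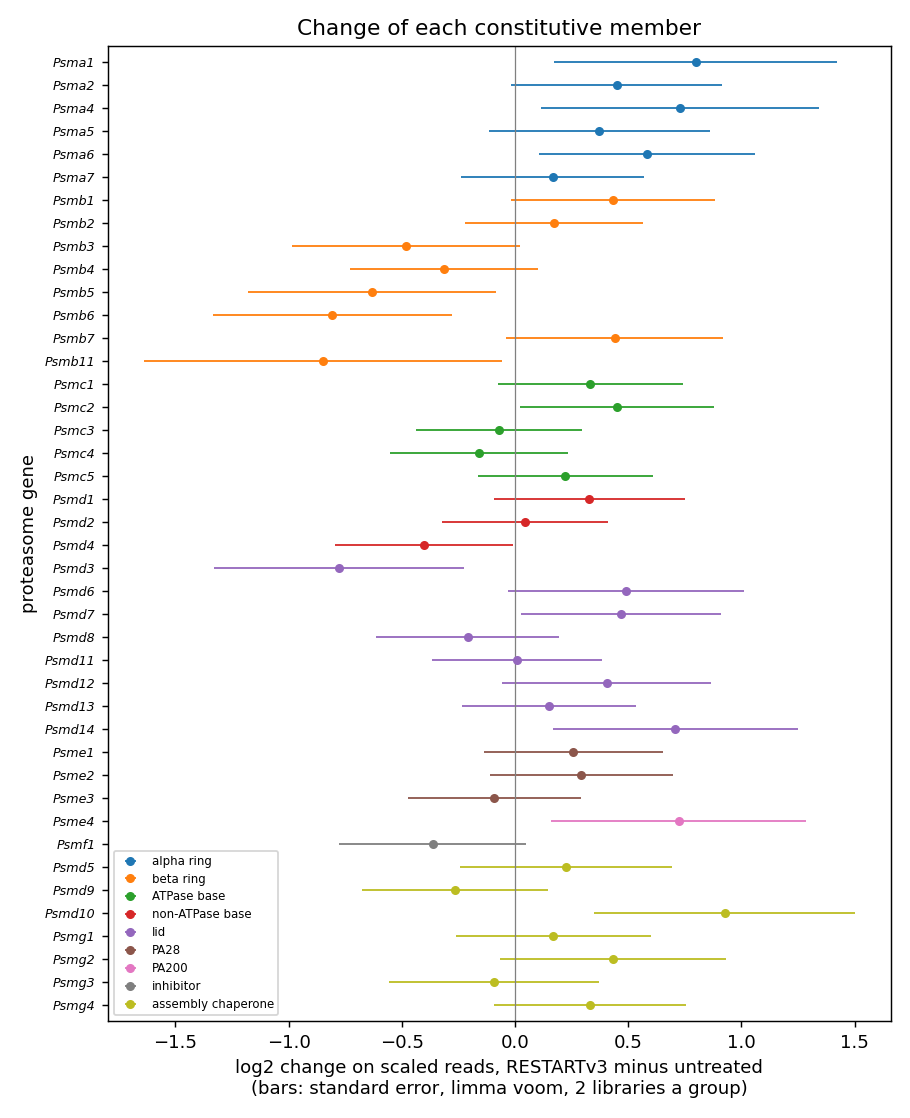
The log2 change on scaled reads, RESTARTv3 minus untreated, is drawn for each of the 42 members with its standard error from limma voom (2 libraries a group), coloured by role. Points run from -0.85 for Psmb11 to 0.93 for Psmd10, with 28 of 42 above 0, and none passed the test.

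Among the libraries, untreated A stood apart over the family, and untreated B did not. Untreated A stood apart over all genes too, so this was not particular to the members. Untreated A was the lowest of the 4 libraries in 23 members and the highest in 13, so 36 of 42 members had it at one end, where 44% and 43.2% of all genes had it lowest and highest. The log2 ratio of RESTARTv3 replicate 1 to untreated B had an SD of 0.16 over the 42 members (0.42 over all genes), and that of RESTARTv3 replicate 2 to untreated B had an SD of 0.20 (0.55 over all genes). The ratio of untreated A to untreated B had an SD of 0.93 over the members (1.12 over all genes). Against untreated B, 41 of 42 members in RESTARTv3 replicate 1 and 40 of 42 in RESTARTv3 replicate 2 lay within 0.5 log2 units, whereas 15 of 42 did so in untreated A. Over all genes these shares were 84.3%, 81.8% and 28.4%. The ratios share untreated B.

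**Figure D2:**
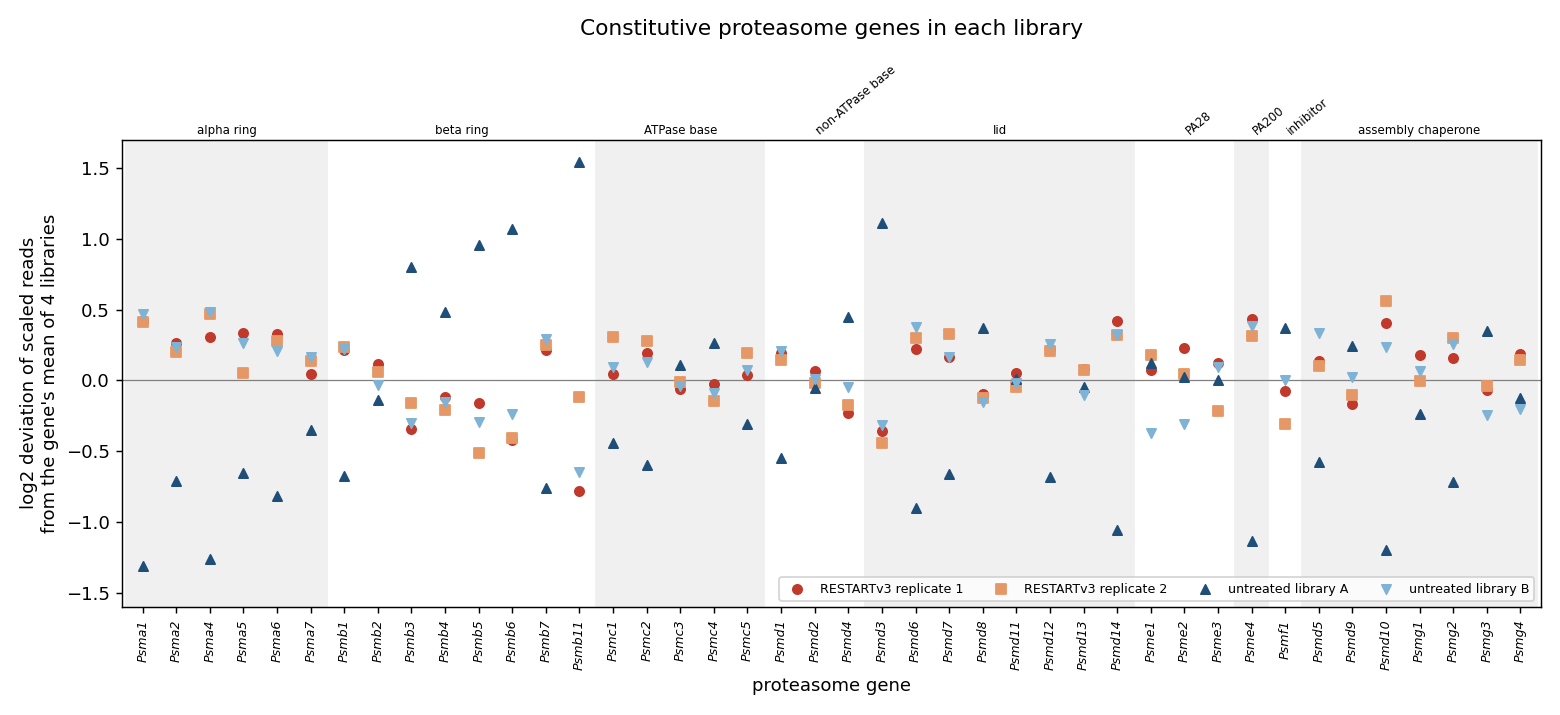
For each of the 42 members (horizontal axis, grouped by role), the log2 deviation of scaled reads from the gene's mean over 4 libraries is drawn for RESTARTv3 replicates 1 and 2 and untreated libraries A and B. Untreated A lies outside the other libraries in most genes, below them in all 6 alpha ring genes and above them in Psmb3, Psmb4, Psmb5, Psmb6, Psmb11 and Psmd3.

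The alpha ring genes, whose products form the gate of the core, showed the most uniform order. Their summed scaled reads were 6687 and 6737 in RESTARTv3 replicates 1 and 2, against 3238 and 6863 in untreated A and B. Untreated A was lowest in 6 of 6 genes, and the median log2 change was 0.52 with all libraries and -0.02 without untreated A.

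Among alpha ring genes tested in RPKM, Psma4 had the highest log2 change. It had 4.29 and 2.34 RPKM in the RESTARTv3 libraries, against 1.04 and 4.92 RPKM in untreated A and B, and the groups overlapped. Its log2 change was 0.35 (SE 0.77, limma with Benjamini-Hochberg adjusted p = 0.998). Psma7, at the other end, had 5.18 and 2.7 RPKM in the RESTARTv3 libraries, against 2.82 and 5.74 RPKM in untreated A and B. Its log2 change was -0.10 (SE 0.80), and here too the groups overlapped. Psma1 carried the widest gap of any member in this direction between the untreated libraries. Its scaled reads were 961 and 954 in the RESTARTv3 libraries, against 289 and 994 in untreated A and B, and 3 of the 4 libraries lay close together.

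The beta ring genes did not share a direction. Their summed scaled reads were 7337 and 7287 in the RESTARTv3 libraries, against 9436 and 7441 in untreated A and B. Untreated A was highest in 5 of 8 genes and lowest in the other 3, and the median log2 change was -0.40 with all libraries and 0.03 without untreated A.

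The catalytic genes were split in this way. Psmb5, for the chymotrypsin-like site, had 2.11 and 0.807 RPKM in the RESTARTv3 libraries, against 3.27 and 1.96 RPKM in untreated A and B. Psmb6, for the caspase-like site, had 9.89 and 4.91 RPKM in the RESTARTv3 libraries, against 19.9 and 11.4 RPKM in untreated A and B. Psmb7, for the trypsin-like site, had 0.613 and 0.307 RPKM in the RESTARTv3 libraries, against 0.224 and 0.658 RPKM in untreated A and B. Untreated A was thus the highest library for Psmb5 and Psmb6 and the lowest for Psmb7, and of these genes only in Psmb6 did the groups not overlap.

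Psmb6 had the smallest p of the 25 members tested in RPKM. Its log2 change was -1.06 (SE 0.87, unadjusted p = 0.223, limma with Benjamini-Hochberg adjusted p = 0.998). On scaled reads it was 1095 and 1110 in the RESTARTv3 libraries, against 3075 and 1243 in untreated A and B, so most of the gap came from untreated A. Without that library its log2 change on scaled reads was -0.15 (SE 0.12), against -0.81 with it.

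Psmb1, a non-catalytic beta subunit, was the highest beta gene by log2 change in RPKM. It had 15.0 and 7.47 RPKM in the RESTARTv3 libraries, against 5.80 and 15.4 RPKM in untreated A and B, with a log2 change of 0.15 (SE 0.87). The groups overlapped. Psmb11, the catalytic subunit gene of cortical thymus epithelium, was at the edge of detection, with 9 and 6 reads in the RESTARTv3 libraries, against 18 and 8 reads in untreated A and B. Its deposited RPKM did not overlap between groups, its scaled reads did, and it was too low for the main test. With no filter its log2 change was -0.11 (unadjusted p = 0.0073, limma with Benjamini-Hochberg adjusted p = 0.587), and on reads -0.85 (SE 0.79, limma voom with Benjamini-Hochberg adjusted p = 0.770). Without untreated B it was -2.01 (limma voom with Benjamini-Hochberg adjusted p = 0.037).

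In the base, the ATPases Psmc1 to Psmc5, which unfold substrates, summed to 9029 and 9642 scaled reads in the RESTARTv3 libraries, against 8075 and 9056 in untreated A and B. Psmc2 had 2.0 and 1.04 RPKM in the RESTARTv3 libraries, against 0.828 and 1.95 RPKM in untreated A and B. Psmc4 had 3.15 and 1.42 RPKM in the RESTARTv3 libraries, against 2.76 and 3.07 RPKM in untreated A and B. Both overlapped between groups, with log2 changes of 0.12 (SE 0.70) for Psmc2 and -0.36 (SE 0.76) for Psmc4. The scaffold genes Psmd1 and Psmd2 and the ubiquitin receptor gene Psmd4 summed to 8000 and 7823 scaled reads in the RESTARTv3 libraries, against 7870 and 8214 in untreated A and B, with overlapping groups.

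The lid genes summed to 10847 and 10815 scaled reads in the RESTARTv3 libraries, against 10522 and 10731 in untreated A and B, and the sums of the groups did not overlap although they differed little. This even sum covered genes that lay to opposite sides in untreated A. Psmd14, the deubiquitinase of the lid, had 0.344 and 0.157 RPKM in the RESTARTv3 libraries, against 0.0884 and 0.327 RPKM in untreated A and B. Psmd3, a lid scaffold subunit, had 2.15 and 0.991 RPKM in the RESTARTv3 libraries, against 4.27 and 2.26 RPKM in untreated A and B. Untreated A was the lowest library for Psmd14 and the highest for Psmd3.

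Psmd3 was the lowest of the Psmd genes tested in RPKM by log2 change, at -0.87 (SE 0.75, limma with Benjamini-Hochberg adjusted p = 0.998), and its groups did not overlap in RPKM. Without untreated A its log2 change on scaled reads was -0.06 (SE 0.12), against -0.78 with it. Psmd7, the partner of Psmd14 in the lid, was the highest of the Psmd genes tested in RPKM. It had 5.13 and 2.81 RPKM in the RESTARTv3 libraries, against 2.08 and 5.24 RPKM in untreated A and B, with overlapping groups and a log2 change of 0.17 (SE 0.79).

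Among genes that act on the core from outside, Psme4, the gene of PA200, had 0.677 and 0.305 RPKM in the RESTARTv3 libraries, against 0.164 and 0.667 RPKM in untreated A and B. Psmf1, the gene of the inhibitor PI31, had 0.501 and 0.208 RPKM in the RESTARTv3 libraries, against 0.489 and 0.538 RPKM in untreated A and B. Psme4 was low in untreated A and level in the other libraries once scaled, with 3191 and 2937 scaled reads in the RESTARTv3 libraries, against 1076 and 3088 in untreated A and B. Psmf1 was lower on scaled reads in both RESTARTv3 libraries, with 607 and 516, against 826 and 641 in untreated A and B. Its log2 change was -0.36 (SE 0.41, limma voom with Benjamini-Hochberg adjusted p = 0.772). The 7 assembly chaperones, Psmd5, Psmd9, Psmd10 and Psmg1 to Psmg4, were too low in RPKM for the main test, and on scaled reads their log2 changes ran from -0.26 for Psmd9 to 0.93 for Psmd10.

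Counted over the family, the RESTARTv3 pair was above the untreated pair on scaled reads, with no overlap, in 7 of 42 members, against 15.9% of all genes. These were Psma6, Psmb2, Psmc2, Psmd10, Psmd13, Psme2 and Psmg4. It was below, with no overlap, in 5 of 42, against 22.1% of all genes: Psmb6, Psmd3, Psmd4, Psmd9 and Psmf1. In deposited RPKM the counts were 0 above, against 1.33% of all genes, and 5 below, against 25.8% of all genes.

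The PA28 genes Psme1 and Psme2 were nearly level between groups as deposited. On scaled reads they ranked within the highest 3 members over untreated B in each RESTARTv3 library. Psme1, which codes PA28 alpha, had 18.4 and 9.74 RPKM in the RESTARTv3 libraries, against 13.7 and 13.8 RPKM in untreated A and B. These averaged 14.1 ± 6.14 RPKM in RESTARTv3 and 13.7 ± 0.0563 RPKM in untreated cochleae (SD, n = 2 each). The untreated values lay between the RESTARTv3 values, and the log2 change was -0.03 (SE 0.88, limma with Benjamini-Hochberg adjusted p = 0.998).

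Psme2, which codes the PA28 beta subunit of the same ring, had 21.0 and 9.07 RPKM in the RESTARTv3 libraries, against 13.1 and 14.7 RPKM in untreated A and B. These averaged 15.0 ± 8.44 RPKM in RESTARTv3 and 13.9 ± 1.15 RPKM in untreated cochleae (SD, n = 2 each). Again the untreated values lay between those of RESTARTv3, and the log2 change was -0.0032 (SE 0.88, limma with Benjamini-Hochberg adjusted p = 0.999).

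On scaled reads Psme1 had 2410 and 2600 in the RESTARTv3 libraries, against 2497 and 1770 in untreated A and B. Psme2 had 965 and 850 scaled reads in the RESTARTv3 libraries, against 838 and 664 in untreated A and B. Untreated B was the lowest library for both genes, the groups overlapped for Psme1, and they did not overlap for Psme2, where untreated A came close to RESTARTv3 replicate 2. The log2 changes were 0.26 (SE 0.39, limma voom with Benjamini-Hochberg adjusted p = 0.812) for Psme1 and 0.29 (SE 0.40, limma voom with Benjamini-Hochberg adjusted p = 0.795) for Psme2. Without untreated A they were 0.53 for Psme1 and 0.49 for Psme2, and without untreated B they were -0.01 for Psme1 and 0.11 for Psme2.

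Psme3, for PA28 gamma, which forms its own nuclear ring, did not share this order. It had 2.36 and 0.910 RPKM in the RESTARTv3 libraries, against 1.55 and 2.35 RPKM in untreated A and B. The groups overlapped, and the log2 change was -0.27 (SE 0.72, limma with Benjamini-Hochberg adjusted p = 0.998).

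Ranked against untreated B, Psme2 and Psme1 were the highest of the 42 members in RESTARTv3 replicate 1, with log2 ratios of 0.54 and 0.45, followed by Psmg4 at 0.39. In RESTARTv3 replicate 2, Psme1 was the highest at 0.55 and Psme2 ranked 3 at 0.36, with Psmb11, on 6 reads against 8, between them at 0.53. Both rankings use untreated B. Against untreated A, which the members scattered around, Psme1 ranked 29 of 42 in RESTARTv3 replicate 1 and 25 in RESTARTv3 replicate 2, with log2 ratios of -0.05 and 0.06. Psme2 ranked 24 and 27 against untreated A, with log2 ratios of 0.20 and 0.02. Which untreated library is taken thus decides the place of both genes.

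**Figure D3:**
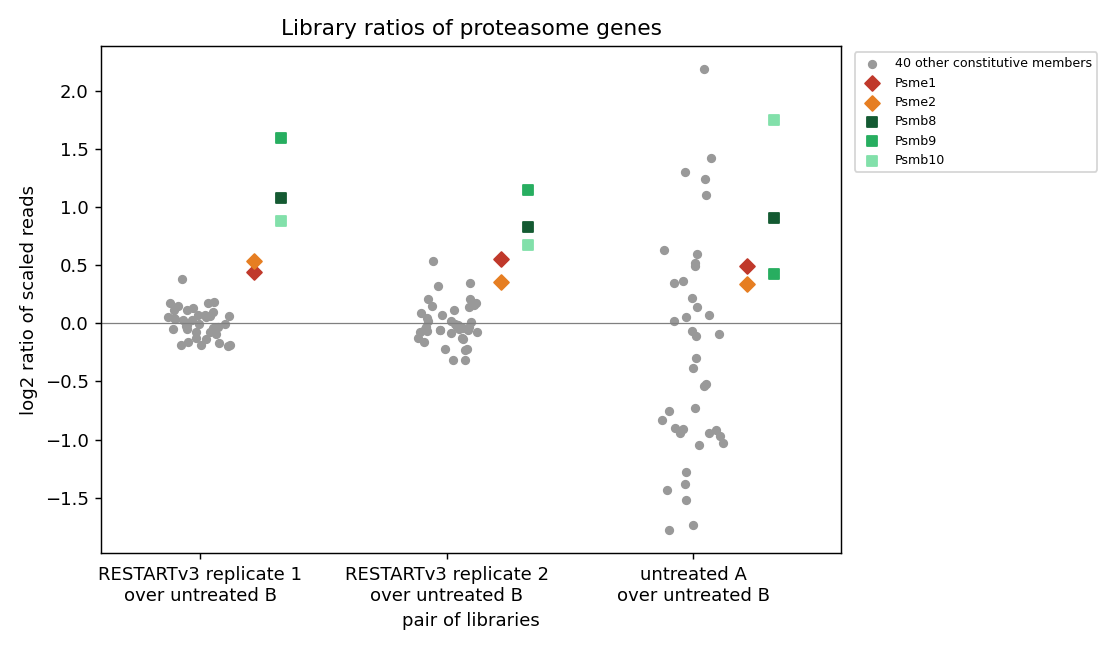
Log2 ratios of scaled reads to untreated library B are drawn for RESTARTv3 replicates 1 and 2 and for untreated library A, with 1 point per gene (grey for 40 members, diamonds for Psme1 and Psme2, squares for Psmb8, Psmb9 and Psmb10). The grey points lie between -0.31 and 0.53 in both RESTARTv3 libraries, where Psme1 and Psme2 lie between 0.36 and 0.55, and spread from -1.78 to 2.19 in untreated A.

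Set beside the core and lid within each library, where the scaling enters only through the added 0.5, Psme1 and Psme2 again depended on untreated B. The measure was log2(RPKM + 0.5) of the gene minus that of the median of 15 core and lid subunits. For Psme1 it was 2.31 and 2.21 in the RESTARTv3 libraries, against 2.46 and 1.75 in untreated A and B. For Psme2 it was 2.50 and 2.11 in the RESTARTv3 libraries, against 2.40 and 1.84 in untreated A and B. The groups overlapped for both genes. The difference of the means, RESTARTv3 minus untreated, was 0.16 for Psme1 and 0.19 for Psme2, less than the pooled SD within groups, 0.36 for Psme1 and 0.34 for Psme2.

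The immunoproteasome genes, given once for reference, were 10.5 and 4.31 RPKM for Psmb8 in the RESTARTv3 libraries, against 6.67 and 5.03 RPKM in untreated A and B. Psmb9 had 2.88 and 1.03 RPKM in the RESTARTv3 libraries, against 0.921 and 0.970 RPKM in untreated A and B. Psmb10 had 5.88 and 2.49 RPKM in the RESTARTv3 libraries, against 7.71 and 3.25 RPKM in untreated A and B. Only for Psmb9 did the groups not overlap in RPKM, and its log2 change on scaled reads was 1.18 (SE 0.44, unadjusted p = 0.036, limma voom with Benjamini-Hochberg adjusted p = 0.770). Within libraries, relative to the core and lid, Psmb9 was -0.17 and -0.53 in the RESTARTv3 libraries, against -0.86 and -1.53 in untreated A and B. Its difference of 0.85 was larger than its pooled SD of 0.38, whereas for Psmb8 the difference of 0.40 was less than its pooled SD of 0.58. Psmb10 had the opposite sign, with a difference of -0.15 and a pooled SD of 0.94.

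**Figure D4:**
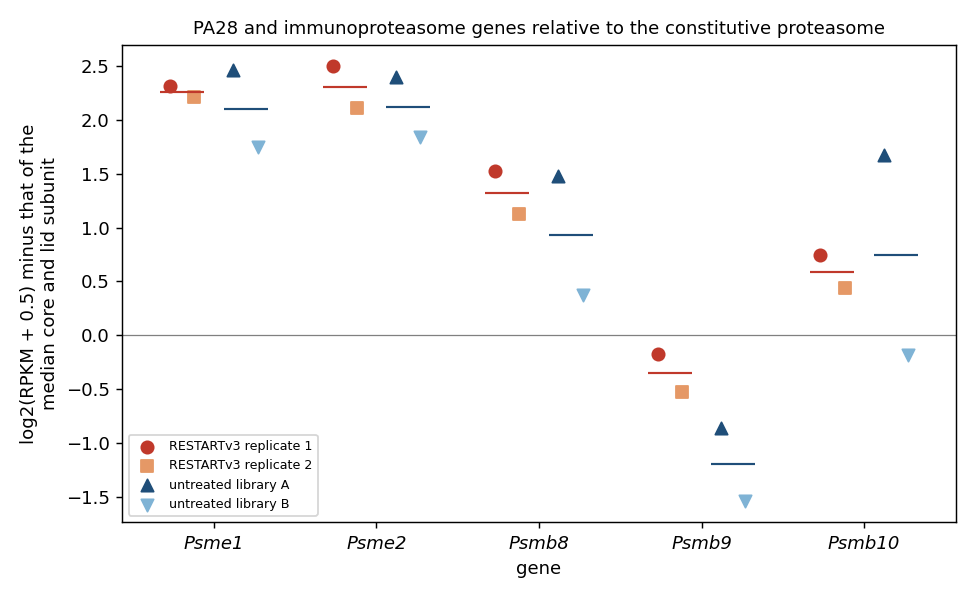
For Psme1, Psme2, Psmb8, Psmb9 and Psmb10, log2(RPKM + 0.5) minus that of the median core and lid subunit (15 genes) is drawn in each library, with a line at the mean of each group (2 libraries each). RESTARTv3 and untreated values overlap for each gene other than Psmb9, where the RESTARTv3 libraries are at -0.17 and -0.53 and the untreated libraries at -0.86 and -1.53.

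Markers of interferon response lay higher in the RESTARTv3 libraries, but none was called. With limma 0 of 11 tested in RPKM were called (smallest unadjusted p = 0.094). With limma voom 0 of 12 were called (smallest Benjamini-Hochberg adjusted p = 0.770). On scaled reads 12 of 12 listed markers lay above both untreated libraries in both RESTARTv3 libraries, against 15.9% of all genes, and in deposited RPKM 9 of 12 did, against 1.33%. The marker list was chosen with earlier results of these data known, so these counts are not independent support. Their scaled reads had sums of 48954 and 50605 in the RESTARTv3 libraries, against 14253 and 20767 in untreated A and B. Markers of T and natural killer cells, 4 of 4 listed, summed to 487 and 486 in the RESTARTv3 libraries, against 276 and 289 in untreated A and B. Of these, 3 of 4 lay above both untreated libraries in both RESTARTv3 libraries, against 15.9% of all genes, and Cd3e overlapped. Reads were few, with 20 for Gzma and 21 for Cd8a in untreated A. Macrophage markers, 6 of 6 listed, did not follow the groups in their sum, with 15458 and 13690 in the RESTARTv3 libraries, against 21375 and 9994 in untreated A and B. By gene, 4 of 6 were highest in untreated A, whereas Adgre1 and Aif1 were lowest there, and their RESTARTv3 values lay above the untreated values with no overlap. The order of the sum, with untreated A high and untreated B low, was also that of Psmb10 and, between the untreated libraries, of Psme1, Psme2, Psmb8 and Psmb9. It was not particular to these genes. The 7 members with an annotated gene span under 5 kb, Psme1 and Psme2 among them, were all higher in untreated A than in untreated B. The part of these cells and of interferon in the values of Psme1 and Psme2 was not tested.

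Untreated A also differed from untreated B by gene span. Of the 7 members with an annotated span under 5 kb, introns included, 7 were higher in untreated A, with a median log2 ratio of A to B of 0.64. Of 24 members of 5 to 20 kb, 8 were higher in A, with a median of -0.45, and of 11 members over 20 kb, 3 were higher in A, with a median of -0.90. Over the 42 members, which share these libraries, Pearson's r between the log2 ratio and log span was -0.52 and Spearman's rho was -0.50. Over 17774 genes with a span they were -0.27 and -0.23, in the order r and rho. For the ratio of RESTARTv3 replicate 1 to untreated B, the members gave -0.12 and -0.0072 and all genes 0.088 and 0.016. For RESTARTv3 replicate 2 to untreated B the members gave -0.28 and -0.21 and all genes -0.32 and -0.13, and for RESTARTv3 replicate 1 to replicate 2 the members gave 0.21 and 0.27 and all genes 0.37 and 0.096. Over all genes a relation to span was therefore not particular to untreated A. Genes are not independent replicates, and the part of span in the member values was not tested.

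**Figure D5:**
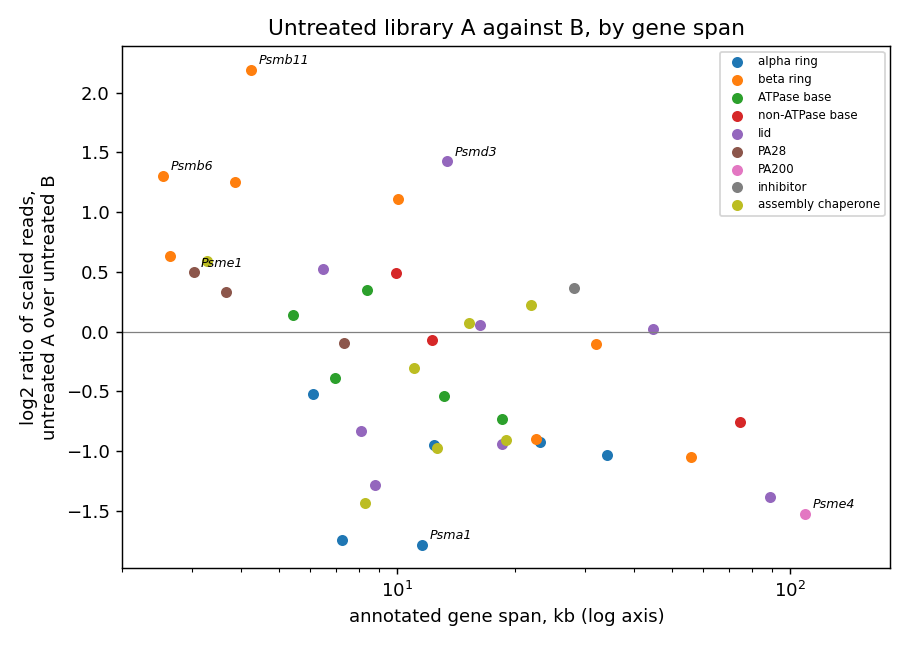
The log2 ratio of scaled reads in untreated library A over untreated library B is drawn for the 42 members against annotated gene span in kb (log axis), coloured by role. All 7 members under 5 kb lie above 0, and 8 of the 11 members over 20 kb lie below 0.

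Markers of some cell types also set untreated A apart. Marker genes of the stria vascularis, 3 of 4 listed, summed to 14757 and 14514 scaled reads in the RESTARTv3 libraries, against 43778 and 16834 in untreated A and B, and inner hair cell markers, 5 of 5 listed, to 6271 and 4783 in the RESTARTv3 libraries, against 11537 and 7372 in untreated A and B. Of the inner hair cell markers, 4 of 5 were highest in untreated A, and Slc17a8 was not. Outer hair cell markers, 2 of 2 listed, summed to 852 and 911 in the RESTARTv3 libraries, against 876 and 1083 in untreated A and B. Erythroid markers, 2 of 3 listed, summed to 27268 and 26453 in the RESTARTv3 libraries, against 12689 and 24420 in untreated A and B. The erythroid markers were split, and Hbb-bs, lowest in untreated A, made up most of the sum. Alas2 was highest in untreated A, with 5013 and 4134 scaled reads in the RESTARTv3 libraries, against 6281 and 5482 in untreated A and B. The part of tissue makeup in the member values of untreated A was not tested.

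Of 27 other genes of the ubiquitin and proteasome pathway, 26 were listed and 18 were tested in RPKM. None was called in either direction with limma, where the smallest unadjusted p was 0.256, and with limma voom 0 of 26 were called, 0 had an unadjusted p under 0.05, and 14 of 26 lay above 0. Their median log2 change on scaled reads was 0.09, and 0.01 without untreated A. Nfe2l1, the transcription factor known to induce proteasome genes when the proteasome is impaired, had 14.5 and 7.72 RPKM in the RESTARTv3 libraries, against 18.0 and 17.3 RPKM in untreated A and B. In RPKM its RESTARTv3 values lay below both untreated values, as they did in 25.8% of all genes. The log2 change of Nfe2l1 was -0.71 in RPKM and -0.45 on scaled reads (SE 0.40, limma voom with Benjamini-Hochberg adjusted p = 0.770). Without untreated A it was -0.14 on scaled reads. Pomp, the maturation factor of the core, had 1.87 and 0.946 RPKM in the RESTARTv3 libraries, against 0.727 and 1.84 RPKM in untreated A and B, with untreated A lowest as in the alpha ring. Adrm1, a ubiquitin receptor of the base, had 2.10 and 0.862 RPKM in the RESTARTv3 libraries, against 3.82 and 2.12 RPKM in untreated A and B, with untreated A highest as for Psmd3.

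Levels between members can be compared only per length, and for 3 members the length recovered from the deposited RPKM was not their own RefSeq span (GRCm38.p6). Psmb1 was divided by 2665 bases, the annotated length of Psmb10, where its own span is 22556 bases, so its deposited RPKM is 8.46-fold above the value at its own span. Psme2 was divided by 1066 bases, the length of Psme2b, where its own span is 3662 bases, so its deposited RPKM is 3.44-fold above the value at its own span. Psme3 was divided by 26916 bases, the length of Psme3ip1, where its own span is 7325 bases, so its deposited RPKM is 3.67-fold below the value at its own span. For the other 39 members the length lay within 5% of the annotation. Ratios between libraries and the fit to recovered reads are not touched by this. The order of levels, the filter at an RPKM of 1 and, through the added 0.5, the size of the log2 changes in RPKM are.

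With reads divided by own span, introns included, Psme1 was the highest member in both RESTARTv3 libraries and in untreated B, at 1311 and 594.6 reads per kb in the RESTARTv3 libraries, against 543.2 and 781.8 reads per kb in untreated A and B. In untreated A, Psmb6 was above it at 800.4 reads per kb. Psme2, first as deposited in RESTARTv3 replicate 1, had 435.0 and 161.1 reads per kb in the RESTARTv3 libraries, against 151.0 and 243.0 reads per kb in untreated A and B. Psme3 had 616.1 and 204.1 reads per kb in the RESTARTv3 libraries, against 226.1 and 489 reads per kb in untreated A and B, and so lay above Psme2 in every library, which is the reverse of the deposited RPKM. At the other end was Psmb11, the lowest member in each library other than untreated A, where Psmd14 was lower at 3.51 reads per kb. There Psmd14 had 311 reads over a span of 88683 bases, and Psmb11 had 18 reads over 4247 bases. Because spans include introns, the order by reads per kb is not an order of transcript levels. Psmb11 had 2.12 and 1.41 reads per kb in the RESTARTv3 libraries, against 4.24 and 1.88 reads per kb in untreated A and B.

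Psme2 has a near-identical copy, Psme2b, and reads may have been split between them, so its values are uncertain. Psme2b had 203 and 91 reads in the RESTARTv3 libraries, against 25 and 100 reads in untreated A and B, and Psme2 had 1593 and 590 reads in the RESTARTv3 libraries, against 553 and 890 reads in untreated A and B. The copy was lowest in untreated A, where Psme2 was not low on scaled reads.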

How the data were processed

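The authors deposited 1 RPKM value per gene and library, and per the submitters' processing notes and the study's methods rRNA was depleted and only read 2 was kept. Reads were trimmed (cutadapt 4.2), cleared of duplicates and stripped of identifiers (UMI-tools 1.0.0), then placed on GRCm39 (STAR 2.7.10b), filtered (SAMtools 1.14) and counted per gene (HTSeq 1.14). The methods also state that genes were dropped where the log2 ratio of replicate 1 to replicate 2 was above 1. With 1586 and 662 reads, or 1.93 and 0.938 RPKM, in RESTARTv3 replicates 1 and 2, Psma1 is past that limit in the deposited table. Genes missing from it were not analysed here. With a length for each gene and the library totals, values came out as whole reads in 100% of the 21230 genes, within 0.001. At the annotated span this held for 11568 genes, 32 of them members. For the other genes the length was itself recovered from the deposited values. The 100% therefore cannot serve as a check of the recovered reads. Gene spans and names were matched to RefSeq on GRCm38.p6, an older assembly, with no coordinates used.

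Groups were compared with limma 3.58.1 under R 4.3.3 (mean-variance trend, no covariates, 2-sided, Benjamini-Hochberg adjustment at 0.05) on log2(RPKM + 0.5) for 5076 genes averaging an RPKM of 1 or more, which understates changes of low genes. Beside it, limma voom was run on recovered reads, for 18467 genes averaging 10 reads or more, scaled by median-of-ratios. Fits were tested on simulated data. Alternatives changed the pseudocount, filter, scaling, variance prior and reproducibility limit, and left out each library.

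The members, roles and lists were chosen with earlier results of these data known. Named with values in each library were the PA28, PA200 and inhibitor genes, the catalytic genes, Psmd14, Psmb11, the members highest and lowest in log2 change per role and any with an unadjusted p under 0.05. Psma1, the 3 pathway genes, Psme2b and the genes at the ends of a range were named after their values were seen. Both untreated columns carry the same name, so they were used as a group with letters in place of replicate numbers. Promoter motifs were not searched, and no sequence is shown.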

Additional observations from a re-analysis of the deposited data

How the results depend on the processing

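Every alternative left the constitutive members with 0 calls, except 2 without untreated B, in which untreated A alone stands for its group and is assumed to vary like the RESTARTv3 pair. With limma voom 16 of 42 were then called higher and 7 lower in RESTARTv3, against 21.4% and 26.8% of all genes, and with median-of-ratios scaling 6 of 24 higher and 4 lower, against 12.5% and 32.1%. Over all genes, 0 were called, against 12 with no filter on low values and 2 with replicate ratios within 2-fold only. Leaving out 1 library gave 0 to 3 calls as deposited, 0 to 2094 with median-of-ratios scaling and 0 to 8845 with limma voom, the upper end each time without untreated B, and limma voom without RESTARTv3 replicate 1 gave 2. The median of members relative to all genes ran from -0.01 (no filter, 42 members) to 0.60 (as deposited, without untreated B), and was 0.01 as deposited without untreated A, against 0.34. The log2 change of Psme1, -0.03 as deposited, was 0.24 with median-of-ratios scaling, 0.49 with quantile normalization and 0.26 with limma voom. That of Psme2, -0.0032 as deposited, was 0.00070 with a pseudocount of 1, 0.27 with median-of-ratios scaling, 0.54 with quantile normalization and 0.29 with limma voom. Neither gene was called in any of these. Leaving out 1 library, Psme1 ran from -0.48 to 0.53 and Psme2 from -0.59 to 0.58. The cause was not tested. Relative to core and lid, Psme1 ran from -0.20 (without untreated B) to 0.52 (without untreated A) and Psme2 from -0.09 to 0.47 in the same fits. Psme2 could not be tested with replicate ratios within 2-fold. The limma voom fits without each library were chosen after seeing the data. No paired analysis was possible because the untreated columns carry no replicate number. Depth limited Psmb11, on 6 to 18 reads.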

Other observations

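Over all listed genes with an annotated span, 2420 of 20325, or 11.9%, had a length in the deposited RPKM more than 5% off the annotation. Of these 619, or 25.6%, equalled the length of a gene whose symbol begins with theirs, as Psmb1 did with Psmb10, Psme2 with Psme2b and Psme3 with Psme3ip1. Among the 17905 genes within 5% there were 30. How the lengths were assigned was not tested. Levels of such genes cannot be read from the deposited RPKM.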
